A study of Homo sapiens with 32 samples.

Results

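The 4 genes described here, PDX1, MNX1, ISL1 and HHEX, encode homeobox transcription factors of the developing pancreas, and all of their merged m6A peaks in the deposited count table were taken, with the symbol matched through the Ensembl identifier. They are 4 of 7978 genes and 9 of 26104 peaks. PDX1 holds 4 peaks, MNX1 holds 3, and ISL1 and HHEX hold 1 each. The count table covers H1 and MEL1, which are 2 lines of human embryonic stem cells, at 4 stages of their differentiation into β-like cells. In each line, cells were taken undifferentiated (stage S0), as posterior foregut (stage S3), as pancreatic progenitors (stage S4) and as β-like cells that were still immature (stage S6), and no agent or genetic change other than the differentiation protocol separates them. Each line and stage has 2 RNA preparations, and each of the 16 preparations gave an input library of fragmented mRNA and a library of the fragments bound by an m6A antibody (IP). The study describes the preparations as independent biological samples, while the labels do not say whether they came from separate cultures. The p-values below measure the spread between these preparations. In fits over both lines that spread also holds any difference between the lines in how they change with stage.

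Homeobox proteins bind DNA through a conserved homeodomain and fix cell identity by switching target genes on or off. PDX1 (pancreatic and duodenal homeobox 1) is needed for the pancreas to form, marks its progenitors, and later regulates the insulin gene in β-cells. MNX1 (motor neuron and pancreas homeobox 1) is needed for the dorsal pancreatic bud and for β-cell identity, and also specifies motor neurons. HHEX (hematopoietically expressed homeobox) acts in foregut endoderm, in ventral pancreas and liver, and later in δ-cells. ISL1 (ISL LIM homeobox 1) follows in the endocrine lineage, and is also used by motor neurons and heart progenitors. The modification m6A is a methyl mark on adenosines of mRNA that affects stability, splicing and translation. A transcript stretch that carries it is captured by the antibody, so it takes up a larger share of the IP reads than of the input reads.

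Depth set what could be seen for these genes. Total counts per library ran from 2652830 to 6879256 in the 16 input libraries, and the IP libraries had a median of 13100407. The MEL1 S4 IP libraries were the shallowest, with 2483580 and 2378881 counts. The input level of a gene adds up the input reads of all its peaks, scaled to a common library size and given as CPM, so it covers the peak stretches only and is not scaled for length, and levels are compared between samples and not between genes. In these bulk samples, fewer cells that use a gene and less RNA per cell cannot be told apart. A gene or peak was called when the Benjamini-Hochberg adjusted p of edgeR's quasi-likelihood test over all features was under 0.1 and the change was at least 2-fold.

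PDX1 was nearly silent in undifferentiated cells, and rose in both lines at posterior foregut. At S0 its input level was 0.483 and 0.682 CPM in H1 and 0.206 and 0.218 CPM in MEL1, from 1 to 3 reads a library. At S3 the level was 36.5 and 29.3 CPM in H1 and 31.8 and 25.5 CPM in MEL1, so that every S3 library lay above every S0 library and the lines overlapped. At S4 the level was 21.5 and 19.5 CPM in H1 and 16.8 and 17.3 CPM in MEL1, every library below every library at S3. The lines parted at S6, where H1 had 3.02 and 2.21 CPM, and MEL1 had 67.2 and 57.7 CPM. At S6 PDX1 was at its lowest after S0 in H1 and at its highest in MEL1. Averaged over both lines, the PDX1 level was 0.397 ± 0.229 CPM at S0 and 30.8 ± 4.61 CPM at S3 (SD, n = 4). It was 18.8 ± 2.16 CPM in pancreatic progenitors, and in β-like cells 2.62 ± 0.573 CPM in H1 and 62.5 ± 6.72 CPM in MEL1 (SD, n = 2).

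MNX1 was read mostly in H1 at the middle stages. At S0 its level was 0.483 and 0.455 CPM in H1 and 0 and 0.653 CPM in MEL1. At S3 the H1 libraries held 30.4 and 25.7 CPM, while the MEL1 libraries held 1.75 and 5.19 CPM. At S4 the values were 17 and 17.3 CPM in H1, and 2.1 and 4.06 CPM in MEL1. In both stages all H1 libraries lay above all MEL1 libraries. At S6 the level in H1 was 6.21 and 4.41 CPM and in MEL1 6.35 and 12.5 CPM, so that both MEL1 libraries were then above H1, the first by little. The RefSeq gene table (GRCh38.p14) places the antisense gene MNX1-AS2 over MNX1, and whether the counting used strand is not given in the sources used here, so reads of the 2 genes cannot be told apart if strand was not used.

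ISL1 had the fewest reads of the 4 genes. No input read fell in its peak in any S0 library, which at 3 counts over the group limits the level but does not set it at 0. At S3 it was read in H1 only, at 1.18 and 1.44 CPM (6 and 7 reads), and both MEL1 libraries were at 0. At S4 the level was 0.494 and 1.51 CPM in H1, and 1.26 and 0.738 CPM in MEL1. At S6 it was 1.95 and 0.882 CPM in H1, and 1.87 and 3.63 CPM in MEL1. The lines overlapped at S4 and S6. All values above 0 rest on 2 to 11 reads.

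HHEX reached similar levels in both lines at S3. At S0 it was 0.725 and 1.36 CPM in H1, and 0 in both MEL1 libraries. At S3 it was 11 and 10.7 CPM in H1, and 12 and 10.2 CPM in MEL1. At S4 the level was 3.46 and 2.88 CPM in H1, and 11.8 and 4.43 CPM in MEL1. At S6 the H1 libraries were down to 0.355 and 1.1 CPM (2 and 5 reads), no higher than at S0 on average, and MEL1 stayed at 13.8 and 11.3 CPM.

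**Figure D1:**
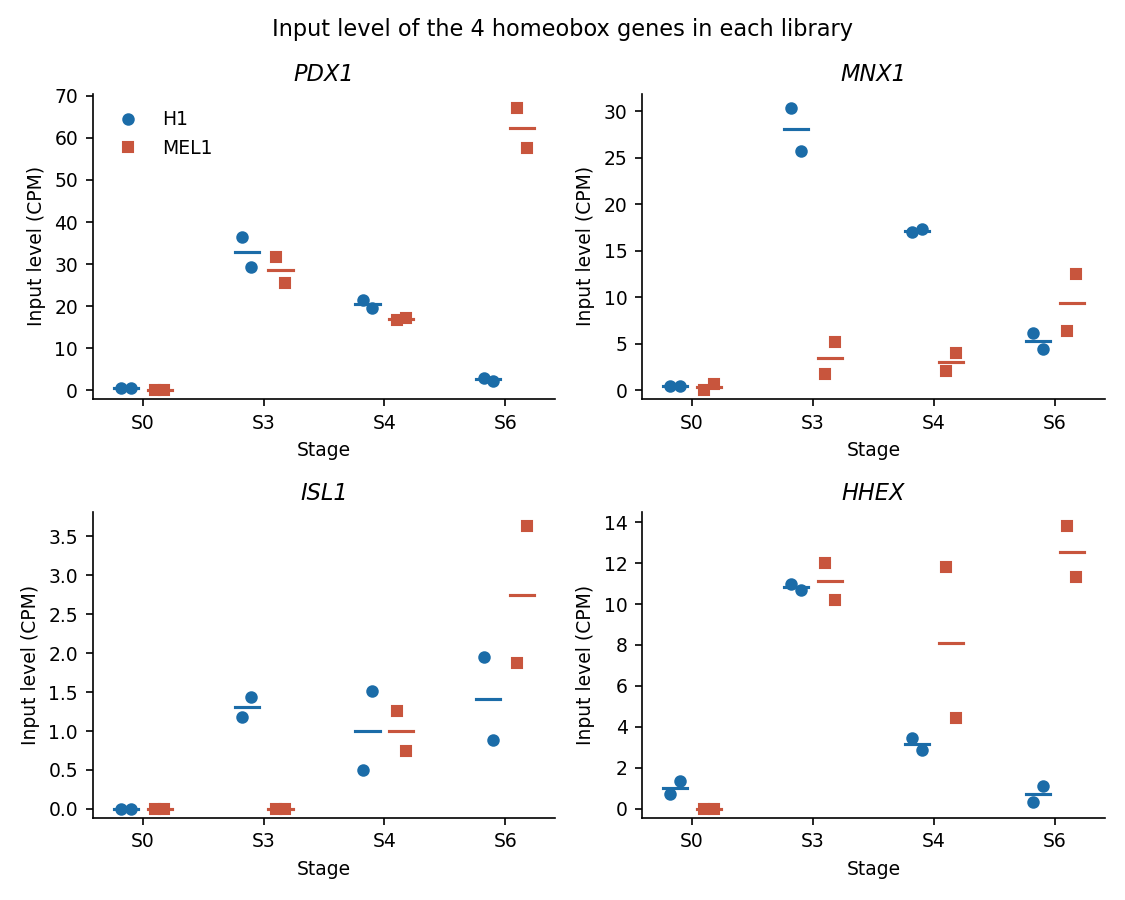
Input level in CPM (y axis, linear, a different scale for each gene) at each stage (x axis). Each point is 1 input library, circles for H1 and squares for MEL1, and the short bars are the means of 2 libraries. PDX1 and HHEX are at similar levels in both lines at S3 and far apart at S6, where H1 has 3.02 and 2.21 CPM of PDX1 against 67.2 and 57.7 CPM in MEL1.

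The change from undifferentiated cells to posterior foregut asks which of these regulators come on as endoderm is patterned. All 4 genes were called higher at S3 than at S0, against 15% of the 7973 genes tested. Genes were counted only where a peak was called enriched in some libraries. PDX1 and MNX1, with few reads at S0, would have entered through later stages, so their rise from S0 is not independent of that selection. The log2 change was 6.31 (SE 1.01, adjusted p = 0.000174 by edgeR) for PDX1, 4.91 (SE 0.872, adjusted p = 0.000421) for MNX1 and 4.34 (SE 0.974, adjusted p = 0.00251) for HHEX, and for each of these every S3 library lay above every S0 library. Because ISL1 had no input read at S0, only a lower bound on its fold can be given. It was at least 4.25-fold higher at S3 over the 4 libraries of each stage (adjusted p = 0.0348 by edgeR), with both MEL1 libraries at 0 at S3. The rise of ISL1 at S3 was therefore seen in H1 alone, on 13 input reads. In MEL1 its peak held 67 IP reads at S0 and 0 at S3. With edgeR's own expression filter ISL1 was not tested. With so few reads at S0, the folds of the others also carry wide counting intervals, 38.3 to 198 around a 79.4-fold rise for PDX1, 20.8 to 109 around 43.3 for MNX1 and 11.3 to 48.6 around 21.9 for HHEX (exact 95% intervals, counting error only).

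At S6 against S0, again all 4 genes were called higher, where 17.5% of genes were, with the same limit of selection. The log2 change was 5.92 for PDX1 (SE 1.04, adjusted p = 0.000336 by edgeR) and 4.44 for MNX1 (SE 0.901, adjusted p = 0.00104), again with no overlap of the stages. ISL1 was at least 11.4-fold higher (adjusted p = 0.0036), and it was present in all 4 libraries at S6. HHEX was called (3.12, SE 1.04, adjusted p = 0.0236) with both MEL1 libraries above every S0 library and the H1 libraries of both stages overlapping. In a fit of H1 alone HHEX changed by -0.57 (adjusted p = 0.544), and with only the libraries of the 2 stages its adjusted p was 0.104.

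Between later stages, none of the 4 genes was called over both lines. At S4 against S3 1.84% of all genes were called, at S6 against S4 5.18%, and at S6 against S3 14%. At an unadjusted p under 0.05 none of the 4 passed in any of these comparisons, while 1073, 1676 and 2423 genes did, and DESeq2 called none of the 4 either. The log2 change at S4 against S3 was -0.69 for PDX1 (SE 0.673, adjusted p = 0.732 by edgeR) and -1.18 for HHEX (SE 0.765, adjusted p = 0.564). Within H1, tested in a fit with separate lines, HHEX fell by 1.79 in this step (adjusted p = 0.0246), and in MEL1 its change was -0.47 (adjusted p = 0.568), with a difference of 1.32 between the lines (adjusted p = 0.263). PDX1 changed in that fit by -0.69 in H1 (adjusted p = 0.073 by edgeR) and by -0.74 in MEL1 (adjusted p = 0.0507). Both adjusted p were under 0.1, and neither change was called because it was less than 2-fold. With only the libraries compared, the adjusted p of PDX1 was also under 0.1, again at less than 2-fold. In the same fit ISL1 was called higher in MEL1 in this step (adjusted p = 0.0854), on 5 reads at S4 and none at S3, at least 2.76-fold by counts, and a fit of MEL1 alone did not call it. At S6 against S4 the pooled changes of PDX1 (0.31, SE 0.766), MNX1 (0.04, SE 0.617) and HHEX (-0.03, SE 0.761) were near 0. For PDX1 and MNX1 those averages joined opposite movements in the lines, which were tested in a fit that gave every line its own stage means.

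From S4 to S6, PDX1, MNX1 and HHEX went down in H1, and PDX1 and MNX1 went up in MEL1. PDX1 fell by 2.94 on the log2 scale in H1 (adjusted p = 5.96e-07 by edgeR) and rose by 1.87 in MEL1 (adjusted p = 1.19e-05). In reads this was a drop from 229 to 27 over the 2 H1 libraries, a level 7.6-fold lower (95% counting interval 5.09 to 11.8), and an increase from 87 to 323 in MEL1, 3.67-fold (2.88 to 4.7). The difference between the lines was 4.81 (SE 0.394, adjusted p = 2.64e-08). MNX1 fell by 1.68 in H1 (adjusted p = 0.013) and rose by 1.58 in MEL1 (adjusted p = 0.0484), and the lines differed by 3.25 (SE 0.732, adjusted p = 0.00332). HHEX fell by 2.12 in H1 (adjusted p = 0.0306). In MEL1 its change was 0.65 (adjusted p = 0.364), and the difference was 2.77 (SE 0.824, adjusted p = 0.0245). Without the first H1 S6 input library that difference was 2.13 (adjusted p = 0.16). The difference for ISL1 was 1.03 (SE 1.33, adjusted p = 0.665).

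Thus 3 of the 4 genes were called for a change that was higher in MEL1, where 7.7% of all genes were. Within the lines 3 of 4 were called lower in H1, against 3.84% of genes, and 2 of 4 were called higher in MEL1, against 8.99%. Fits of the lines alone called the same 3 genes in H1, and only PDX1 in MEL1. From S3 to S4 the PDX1 level by counts was 1.67-fold lower in MEL1 (1.3 to 2.16) and 1.63-fold lower in H1 (1.37 to 1.94). No gene of the 4 was called for a difference between the lines in that step by edgeR, where 9.65% of genes were. DESeq2 called none of PDX1, MNX1 and HHEX and gave no adjusted p for ISL1. At an unadjusted p under 0.05 by edgeR, 1 of the 4, ISL1, and 1835 genes in all passed. In the first step 1 of the 4 was called. The S3 against S0 change of HHEX was 5.23 higher in MEL1 (SE 1.59, adjusted p = 0.0137), where 16.5% of genes were called in that direction. MEL1 had no HHEX read at S0, so this fitted value is not a bound, and by counts the HHEX rise was at least 34.8-fold in MEL1, and 10.3-fold (5.24 to 23.2) in H1.

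**Figure D2:**
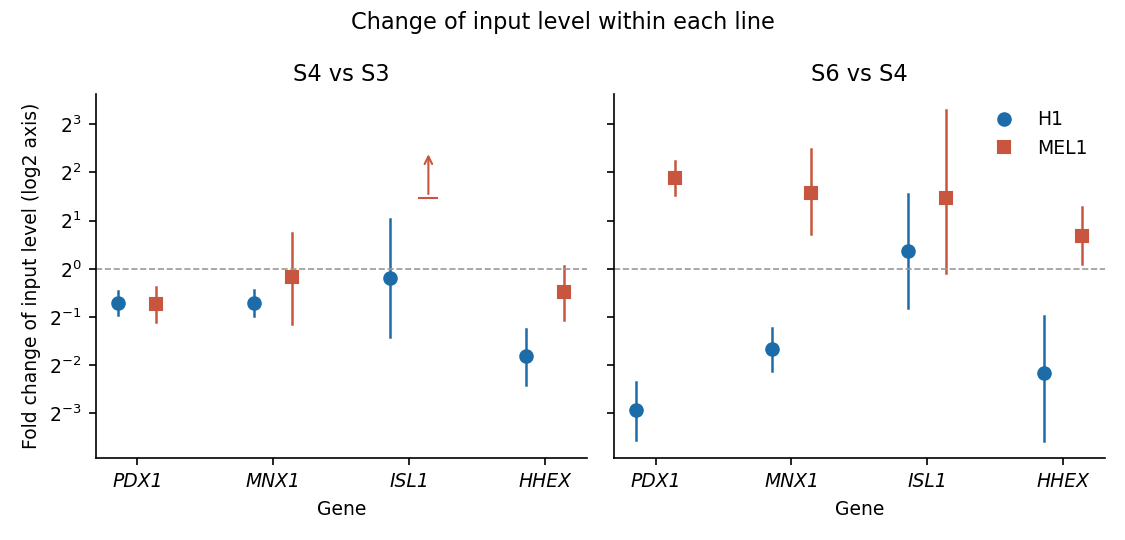
Fold change of the input level (y axis, log2 axis) of each gene (x axis) within H1 (circles) and MEL1 (squares), from the summed reads of the 2 libraries, with exact 95% counting intervals as vertical lines. The arrow marks ISL1 in MEL1 at S4 against S3, where S3 had no read, as a lower bound. At S6 against S4 the H1 intervals of PDX1, MNX1 and HHEX lie below 1 and the MEL1 intervals of PDX1, MNX1 and HHEX lie above 1.

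Markers of other cell types moved with the line and are given beside this difference. Of 11 genes of hepatic-type cells 7 had counts, and their summed level was 45500 and 39600 CPM in MEL1 at S3, 76200 and 78000 at S4 and 9330 and 8920 at S6, against 179 to 536 CPM in H1 over the same stages, with none of the 7 at 0. The 2 of 5 intestinal genes with counts summed to 434 to 496 CPM in MEL1 at S3 and S6 and to 152 and 190 at S4, against 18 to 86 CPM in H1. The 8 of 12 genes of undifferentiated cells with counts summed to 4300 to 6390 CPM at S0, and to 999 and 961 CPM in H1 at S6, against 633 and 628 in MEL1. SOX2, also a gene of foregut and neural cells, made up most of the H1 sum at S6 (612 and 568 CPM, against 176 and 214 in MEL1). Without it the S6 sums were 386 and 393 CPM in H1 and 458 and 414 in MEL1. The full sums were 1740 and 1810 CPM in H1 and 562 and 522 in MEL1 at S3. At S4 they were 1990 and 1660 CPM in H1 and 575 and 561 in MEL1, and without SOX2 746 and 585 against 393 and 356. STMN2, the one neuronal gene of 10 with counts, was at 265 and 282 CPM in H1 and 90.8 and 103 CPM in MEL1 at S6. At S4 it was at 14.3 and 13.2 CPM in H1 and 51.3 and 43.9 CPM in MEL1, and at S3, where ISL1 had no read in MEL1, it was at 5.72 and 8.03 CPM in H1 and at 0 in both MEL1 libraries. The 5 of 16 islet endocrine genes with counts summed to 664 and 513 CPM in H1 and 108 and 125 in MEL1 at S4, and to 845 and 817 CPM in H1 and 741 and 763 in MEL1 at S6. CHGA, a granule protein of endocrine cells, was at 56.3 and 50.5 CPM at S4 and 721 and 727 CPM at S6 in MEL1, and at 625 and 484, then 810 and 781 CPM in H1. In undifferentiated cells (S0) CHGA was already at 233 and 243 CPM in H1 and 62.3 and 73.1 CPM in MEL1. Without CHGA the sums in MEL1 were 51.7 and 74.5 CPM at S4 and 20.5 and 35.9 at S6, and in H1 39.8 and 28.9, then 34.9 and 36.4 CPM, so the rise of the sum in MEL1 was that of CHGA. KDR, the gene of heart and endothelium with counts, stayed at or under 6.39 CPM after S0. The part of these markers in the PDX1, MNX1 and HHEX difference was not tested, and the line and its differentiation cannot be told apart.

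The other pancreatic transcription factors set a frame for the 4 genes. Of a list of 41 such factors 23 had counts, and these too were counted only where a peak was called, so rises from S0 are not independent of that selection. At S3 against S0, 13 were called higher and none lower, with a median log2 change of 1.66 against -0.02 over all genes, of which 15% were called higher. At S4 against S3, 1 was called higher and 3 lower (median 0.21 against 0.02), where 1.49% and 0.351% of all genes were. At S6 against S4, 2 were called higher and 3 lower (median 0.11 against -0.03), where 2.85% and 2.33% were. Across the wider intervals, 8 were called higher and 6 lower at S6 against S3 (median 0.89 against -0.01, with 9.33% and 4.69% of all genes called), and 16 higher and 1 lower at S6 against S0 (2.78 against 0.03, with 17.5% and 13.8%). The called factors with the largest changes at S3 were the endoderm factors HNF4A (8.03, SE 0.666), FOXA1 (7.53, SE 0.346) and FOXA2 (7.33, SE 0.301). PROX1, a homeobox factor of pancreas and liver development, rose by 2.06 at S4 (SE 0.412, adjusted p = 0.0214 by edgeR), and the endoderm factors GATA4 and FOXA2 fell by 1.69 (SE 0.299) and 1.41 (SE 0.222). At S6, GATA4 fell by 2.08 (SE 0.314, adjusted p = 0.00136), the homeobox factor ONECUT2 rose by 1.45 (SE 0.361, adjusted p = 0.0282) and FOXA3 fell by 1.33 (SE 0.4, adjusted p = 0.0662). The FOXA3 call did not hold without 7 of the 8 S4 and S6 input libraries left out in turn, where its adjusted p was 0.112 to 0.168, nor with a replicate block (0.107). Without a term for cell line, edgeR did not call GATA4 (adjusted p = 0.243) and FOXA2 (0.127) at S4, nor GATA4 (0.103) and ONECUT2 (0.13) at S6. PROX1 lost its call without both MEL1 S4 libraries (0.12).

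The genes whose level followed each of the 4 most closely were sought over the 16 input libraries among 7715 genes, by Pearson's r on log2 CPM. These libraries share 4 stages and 2 lines, so the values describe a pattern and carry no test. PDX1 was most like ROR2 (r = 0.958), FOXJ1 (0.948) and ADCY6 (0.947). ROR2, a Wnt receptor, was at 148 to 151 CPM in H1 and 234 to 241 CPM in MEL1 at S3, and at S6 at 49.7 to 56.5 CPM in H1 against 151 CPM in MEL1. MNX1 was most like NBPF14 (0.963) and DYRK1B (0.939), and ISL1 was most like COL2A1 (0.944), EMX2 (0.937) and TFAP2A (0.934). EMX2, like ISL1, was at 8.87 to 11.1 CPM in H1 at S3 and at no more than 0.226 CPM in MEL1. HHEX was most like HSPG2 (0.948), PLXNB1 (0.945) and AMBP (0.915), and AMBP, a plasma protein made by hepatocytes, was at 36.2 to 37.1 CPM in MEL1 and 0 to 1.6 CPM in H1 at S6.

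The m6A signal was then read peak by peak. Peaks are named by gene and by the position listed for them within the gene, since no chromosome coordinates were used. These peaks are in the table because they were called enriched in some libraries, so IP over input at a stage describes them and is not independent of the peak calling. At posterior foregut 6 of the 9 peaks were called enriched in IP over input, against 30.3% of all peaks. At S4 again 6 were called, against 20.8%, and at S6 4 were called, against 28.4%. At S0 only the ISL1 peak was called, against 30.7%, where the genes themselves had few or no reads.

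Of the PDX1 peaks, 651 had the highest IP over input at S3, S4 and S6 in the fit over both lines. In H1 this peak had 1008 and 972 IP reads at S3 beside 61 and 39 input reads, and in MEL1 934 and 744 beside 52 and 30. IP over input was 5.06 and 7.26 in H1, and 4.91 and 7.77 in MEL1, so that the lines overlapped. At S4 it was 19.5 and 14.1 in H1 and 8.4 and 2.84 in MEL1, and at S6 it was 11.7 and 4.96 in H1 and 4.25 and 5.24 in MEL1. All 12 preparations after S0 lay above 1. The log2 IP over input was 2.57 at S3 (SE 0.821, adjusted p = 0.00882 by edgeR), 3.67 at S4 (SE 0.879, adjusted p = 0.00101) and 2.27 at S6 (SE 0.826, adjusted p = 0.0191), at the 90.1st, 99.4th and 87.3rd percentile of all peaks.

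PDX1 peaks 951 and 1201 were weaker in the fit over both lines. In single preparations 1201 was at times above 651, as in the first MEL1 preparation at S3 (5.39 against 4.91). At S3, peak 951 gave 3.36 and 3.15 in H1 and 3.88 and 3.15 in MEL1, and peak 1201 gave 3.78 and 3.42 in H1 and 5.39 and 4.42 in MEL1. The log2 values were 1.76 (SE 0.765, adjusted p = 0.0501 by edgeR) and 1.99 (SE 0.735, adjusted p = 0.0216). Peak 951 was called also at S4 (2.07, adjusted p = 0.0297) but not at S6 (1.36, adjusted p = 0.124). At S6 it was called with a replicate block (1.52, adjusted p = 0.00583), with normalization within IP and input (1.75, adjusted p = 0.047), in H1 alone (1.82, adjusted p = 0.00153) and in MEL1 alone (1.34, adjusted p = 0.0272). Peak 1201 was called at S6 (1.92, adjusted p = 0.0271) but not at S4 (0.97, adjusted p = 0.283), where fits of H1 alone (1, adjusted p = 0.0316) and of MEL1 alone (1.17, adjusted p = 0.0819) called it. At S4 peak 1201 gave 0.945 and 2.94 in H1 and 1.29 and 4.45 in MEL1, and replicates of a line differed by more than the lines did. PDX1 peak 1401 was not enriched at any stage. Its ratios ran from 0.448 to 1.37 at S3, from 0.235 to 1.84 at S4 and from 0.128 to 0.618 in MEL1 at S6, and in H1 at S6 it had no input read and 2 and 3 IP reads.

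The MNX1 transcript had 2 peaks enriched at S3, 403 and 553. Peak 403 gave 3.25 and 2.89 in H1 and 6.28 and 2.6 in MEL1 at S3, from 61 and 61 input reads in H1 but 3 and 14 in MEL1. Its log2 IP over input was 1.61 at S3 (SE 0.755, adjusted p = 0.0682 by edgeR), 2.01 at S4 (SE 0.81, adjusted p = 0.0399) and 1.8 at S6 (SE 0.802, adjusted p = 0.0534). Peak 553 gave 4.91 and 5.81 in H1 and 19.7 (3.42 to 788, from 1 input read) and 3.7 in MEL1 at S3. It was called at S3 (2.4, SE 0.925, adjusted p = 0.0295) and S4 (1.91, SE 0.942, adjusted p = 0.0953). At S6 peak 553 gave 2.17 and 2.45 in H1, and 1.07 and 1.88 in MEL1 (log2 0.91, adjusted p = 0.427), and a fit of H1 alone called it (1.09, adjusted p = 0.032).

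MNX1 peak 953 was higher at S4 than at S3 and S6 in H1, and in MEL1 it had few reads. In H1 it had 125 and 81 IP reads beside 45 and 32 input reads at S3, 666 and 527 beside 30 and 29 at S4, and 10 and 27 beside 8 and 5 at S6. IP over input was thus 0.851 and 0.737 at S3, 7.55 and 8.08 at S4 and 0.497 and 1.32 at S6, and the S4 preparations of H1 overlapped neither neighbour. In MEL1 the peak gave 3.46 and 1.41 at S3 from 3 and 4 input reads, and at S4 3 IP reads in each library beside 0 and 4 input reads. Over both lines it was called at S4 only (log2 2.34, SE 0.875, adjusted p = 0.0276 by edgeR), and in a fit of MEL1 alone it was -0.04 (adjusted p = 0.999). The difference between the lines at S4 was not called (-3.05, SE 1.47, adjusted p = 0.111).

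The ISL1 peak 2201 had an IP over input above 1 in every preparation with an input read. It had 135 and 147 IP reads in H1 at S3 beside 6 and 7 input reads, a ratio of 6.89 and 6.12, and no read of either kind in MEL1. At S4 the ratio was 4.42 and 2.42 in H1, and 10 and 15.4 in MEL1. At S6 it was 6.08 and 10.9 in H1 and 4.38 and 3.65 in MEL1. Its log2 IP over input was 2.56 at S3 (SE 1.19, adjusted p = 0.066 by edgeR), 2.89 at S4 (SE 1.2, adjusted p = 0.0478) and 2.37 at S6 (SE 1.13, adjusted p = 0.0701). At S0, where the input held no read, the IP libraries held 9 and 12 reads in H1 and 9 and 58 in MEL1 (adjusted p = 0.0136). Against 3 input counts over the group that was at least 8.59-fold IP over input, and at least 3.1-fold without the second MEL1 preparation, which held most of the reads.

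HHEX peak 1651 was not called enriched at any stage. Its ratio was 0.673 and 0.734 in H1 and 1.33 and 1.04 in MEL1 at S3, 0.0243 and 0.402 in H1 and 0.331 and 1.67 in MEL1 at S4, and 0.588 to 1.39 over the 4 preparations at S6. The log2 values were -0.21 at S3, -1.1 at S4 and -0.56 at S6 (adjusted p = 0.869, 0.396 and 0.65 by edgeR), at the 45.9th, 37.5th and 43.7th percentile. At S4 it was called lower in IP than in input with a replicate block (-1.5, adjusted p = 0.0782) and in H1 alone (-2.08, adjusted p = 0.00564). Thus the 2 peaks not called enriched at any stage were HHEX 1651 and PDX1 1401, and the others were called at 1 stage or more.

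**Figure D3:**
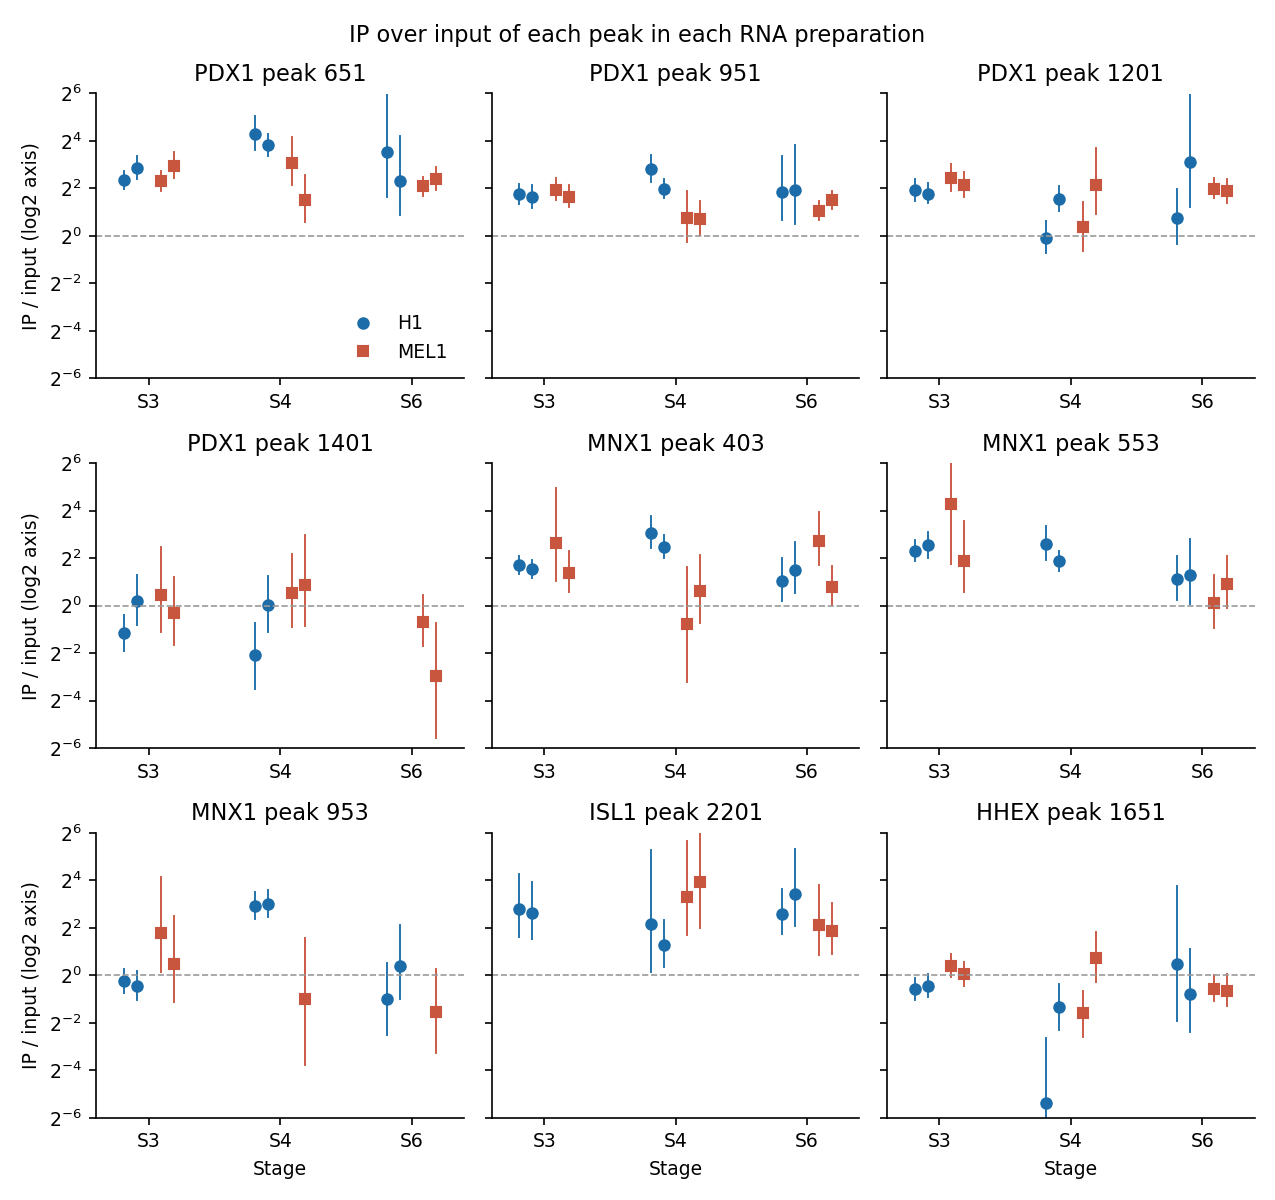
IP over input (y axis, log2 axis) of each peak at S3, S4 and S6 (x axis). Each point is 1 RNA preparation, circles for H1 and squares for MEL1, vertical lines are exact 95% counting intervals, clipped at the axis, and the dashed line marks 1. Preparations without an input or IP read have no point. PDX1 peak 651 lies above 1 in all 12 preparations, MNX1 peak 953 in H1 is at 7.55 and 8.08 at S4, above its H1 values at S3 and S6, and HHEX peak 1651 lies around or below 1.

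Several of these calls lay near the threshold and were lost with a preparation left out, since 2 per line leave little margin. At S3 the calls of PDX1 651, PDX1 1201 and MNX1 553 held with each S3 preparation left out in turn. PDX1 951 (adjusted p = 0.103 to 0.118) and MNX1 403 (0.118 to 0.154) lost theirs under each omission, and ISL1 did without the first (0.164) or the second H1 preparation (0.141). Their log2 values moved little, and ran from 1.7 to 1.79 for PDX1 951 and from 1.56 to 1.67 for MNX1 403. For ISL1 they were 2.45 and 2.6. At S4, PDX1 651 and 951 held. MNX1 403 was lost without the first (0.135) or second (0.133) H1 preparation, MNX1 553 without the first (0.212) or second (0.141) H1 or the second MEL1 preparation (0.14), MNX1 953 without the second H1 preparation (0.124), and ISL1 without the first (0.127) or second (0.147) MEL1 preparation. At S6, PDX1 651 and 1201 held, MNX1 403 was lost without the first MEL1 preparation (0.306, with its log2 value at 1.11), and ISL1 under each omission (0.105 to 0.178). These p-values are adjusted and come from edgeR's quasi-likelihood test. With the IP libraries thinned to one depth, MNX1 403 lost its call at S3 (0.166) and S6 (0.105), PDX1 951 at S3 (0.121) and MNX1 553 at S4 (0.165). Fits of MEL1 alone did not call MNX1 403 at S3, S4 or S6 (0.182, 0.902 and 0.14), MNX1 553 at S3 or S4 (0.133 and 0.406), PDX1 951 at S4 (0.28) or ISL1 2201 at S6 (0.103). DESeq2 called fewer peaks, 2 of 9 at S3 (20.4% of all peaks), 5 at S4 (19%) and 2 at S6 (20.9%). At S3 it did not call PDX1 1201 (adjusted p = 0.126), PDX1 951 (0.226), MNX1 403 (0.278) or ISL1 2201 (0.136), at S4 it did not call MNX1 553 (0.117), and at S6 it did not call MNX1 403 (0.127) or ISL1 2201 (0.137).

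Whether methylation of these transcripts changed between stages was tested as the change in IP over input. None of the 9 peaks was called at S3 against S0, S4 against S3, S6 against S4, S6 against S3 or S6 against S0, where 0.0498%, 6.6%, 7.58%, 0% and 1.26% of all peaks were. At an unadjusted p under 0.05, MNX1 403 passed at S3 against S0 (log2 4.15, SE 1.53) and at S6 against S0 (4.34, SE 1.56), and no peak of the 9 passed in the other comparisons, while 1616, 4767, 5282, 756 and 3333 of all peaks passed, in the order given. DESeq2 called 1 of the 9 at S6 against S0 (6.4% of peaks), and in the others none of those with an adjusted p. The change at S4 against S3 was 1.1 for PDX1 651 (SE 1.13), 2.02 for MNX1 953 (SE 1.22) and -1.02 for PDX1 1201 (SE 1.03). These standard errors, above 1 on the log2 scale, also hold differences between the lines, and changes of this size were not detectable over both lines.

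In a fit that held every line apart, 9.01% of all peaks were called higher in H1 at S4 than at S3. In either direction 31.1% were. Of the 9 peaks, 2 were called higher. They were PDX1 651 (1.44, SE 0.535, adjusted p = 0.0498 by edgeR) and MNX1 953 (3.28, SE 0.948, adjusted p = 0.0131). A fit of H1 alone, which called 46.2% of all peaks, called both, together with MNX1 403 (1.14, adjusted p = 0.00821) higher and HHEX 1651 (-1.64, adjusted p = 0.0869) lower. From S4 to S6 in H1, MNX1 953 fell by 3.18 (SE 1.07, adjusted p = 0.0377), where 7.66% of peaks were called lower and 26% in either direction. In the fit of H1 alone, which called 41.6% of peaks, MNX1 403 fell by 1.61 as well (adjusted p = 0.00513). In MEL1 none of the 9 was called at either step, where 26.6% and 22.1% of peaks were, and a fit of MEL1 alone called none. At an unadjusted p under 0.05 none of the 9 passed in MEL1, while 9034 and 7978 of all peaks did. The H1 counts, 2 higher and 1 lower of 9, lay under the shares called in either direction but above those called in the same direction. Whether so few peaks differ from others as a set was not tested.

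The distribution of IP reads along each transcript was also read, which does not use the input. In H1 at S3, peak 651 held 46.1% and 47.2% of the PDX1 IP reads, at S4 60.1% and 61.5%, and at S6 38.3% and 37.3%. Over the same stages peak 1201 held 26.5% and 29.7%, then 4.37% and 11.9%, then 24.7% and 32.7%. Its IP reads at S4 were 75 and 238, against 580 and 611 at S3. The share of the MNX1 IP reads in peak 953 in H1 was 8.11% and 6.11% at S3, 44.5% and 35.5% at S4, and 6.49% and 14.1% at S6. In each case the 2 H1 libraries at S4 lay outside the range of the 4 H1 libraries at S3 and S6.

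In MEL1 the shares of PDX1 at S3 and S6 were close to those of H1, and S4 was shallow. Peak 651 held 44.1% and 44.8% at S3 and 40.8% and 39.1% at S6, and at S4 it held 65.6% and 31.1% of 221 and 164 reads. Peak 1201 held 26.1% and 28.1% at S3, 13.1% and 24.4% at S4, and 34.8% and 25.3% at S6, so that both S4 libraries were below the others. The MNX1 total in MEL1 at S4 was 7 and 26 IP reads, too few to set a share. These shares were not tested, and they were chosen after their values were seen.

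**Figure D4:**
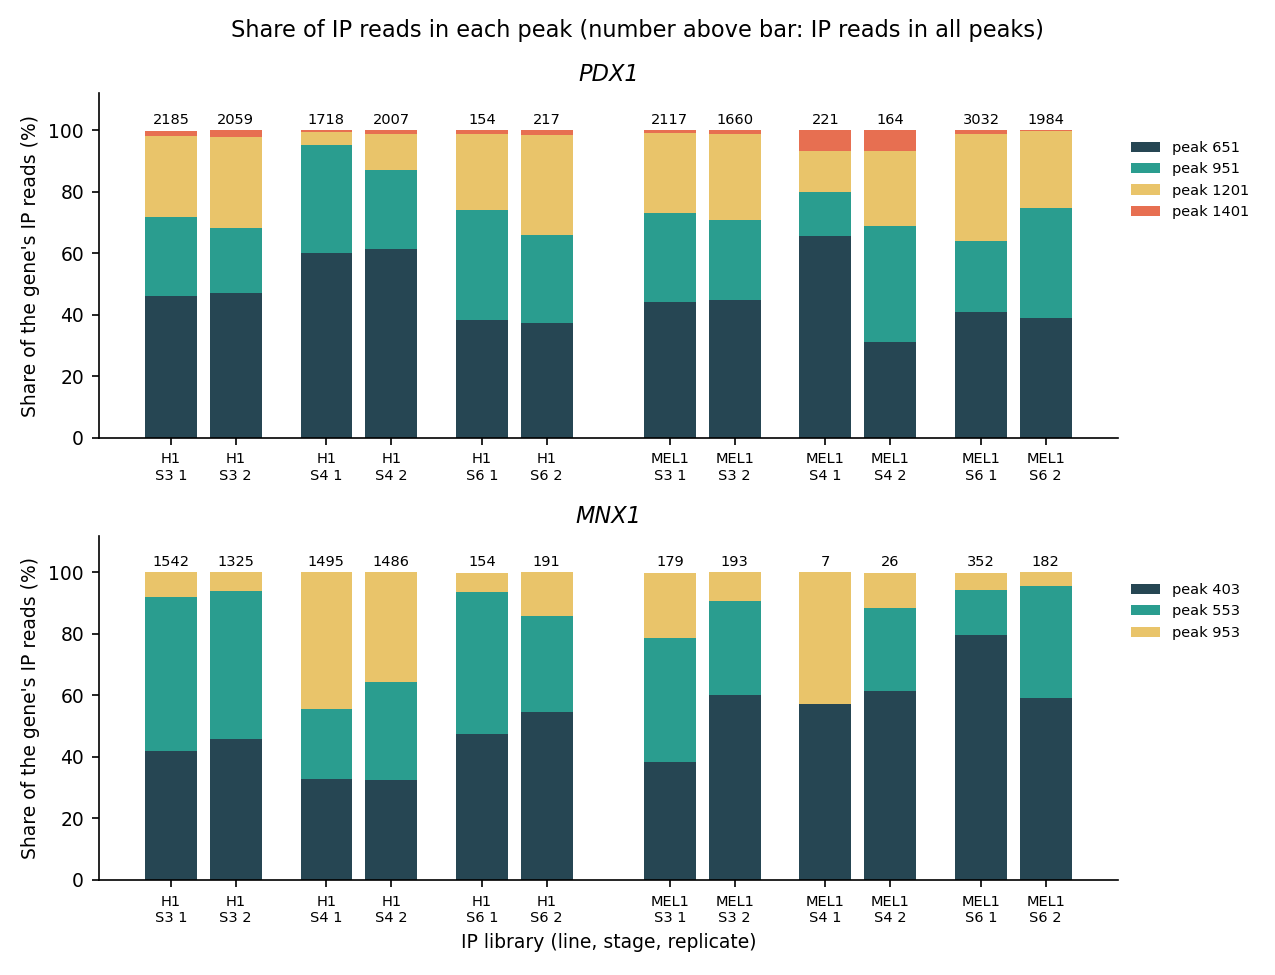
Share of the IP reads of PDX1 (upper plot) and MNX1 (lower plot) in each of their peaks (y axis, percent) in each IP library at S3, S4 and S6 (x axis), with the number of IP reads in all peaks of the gene above each bar. In both H1 libraries at S4, PDX1 peak 1201 holds 4.37% and 11.9%, and MNX1 peak 953 holds 44.5% and 35.5%.

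At S4, 3 of the 9 peaks were called for a lower IP over input in MEL1 than in H1, against 22.5% of all peaks called in that direction, so the count does not set these peaks apart from others. For PDX1 651 the log2 IP over input of MEL1 minus that of H1 was -1.55 (H1 4.01, MEL1 2.46, SE 0.615, adjusted p = 0.0533 by edgeR), for PDX1 951 it was -1.69 (H1 2.41, MEL1 0.72, SE 0.595, adjusted p = 0.0302) and for MNX1 403 the difference was -2.55 (H1 2.75, MEL1 0.19, SE 0.942, adjusted p = 0.0378). The uncalled estimate of MNX1 953, given above, was -3.95 without the first MEL1 preparation (adjusted p = 0.0721), and its sign turned without the second MEL1 preparation, the one with input reads. HHEX 1651 was higher in MEL1 by 1.69 (SE 0.954, adjusted p = 0.177), and was called without the second H1 (4.63, adjusted p = 0.0109) or the first MEL1 preparation (2.92, adjusted p = 0.0519). For ISL1 2201 the difference was 2.16 (SE 1.18, adjusted p = 0.164), and it was called with thinned IP libraries (2.58, adjusted p = 0.0788). DESeq2 called 5 of the 9, near the 43.2% of all peaks it called in either direction. Beside PDX1 951 and MNX1 403, these were MNX1 953 (-2.72, adjusted p = 0.0772), HHEX 1651 (2.08, adjusted p = 0.0432) and ISL1 2201 (2.48, adjusted p = 0.0931), and PDX1 651 was not called (-1.23, adjusted p = 0.122). The MEL1 S4 IP libraries were the shallowest, with 51 to 145 IP reads in PDX1 651 against 1033 and 1234 in H1, and with the IP libraries thinned to the same depth PDX1 651 gave -1.32 (adjusted p = 0.113). Without the first H1 S4 preparation none of the 9 was called, and the values were -0.78 for PDX1 651, -0.7 for PDX1 951 and -1.7 for MNX1 403 (adjusted p = 0.462, 0.491 and 0.27). Without the first MEL1 S4 preparation MNX1 403 was at -2.14 (0.135), and without the second PDX1 651 was at -0.94 (0.295).

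At S3 and S6, by contrast, no peak of the 9 was called for a difference between the lines, where 3.46% and 2.79% of all peaks were. At an unadjusted p under 0.05 none of the 9 passed at S3 or S6, while 3418 and 3861 of all peaks did. DESeq2 called none of those among the 9 to which it gave an adjusted p. At S3 the difference was -0.00335 for PDX1 651 (SE 0.513), 0.12 for PDX1 951 (SE 0.548) and 0.08 for MNX1 403 (SE 0.745). At S6, where the input level of PDX1 was far apart in the lines, the log2 IP over input of peak 651 was 2.82 in H1 and 2.22 in MEL1 (difference -0.59, SE 0.728, adjusted p = 0.766 by edgeR), and that of peak 1201 was 1.61 and 1.94 (difference 0.33, SE 0.778, adjusted p = 0.892). The H1 values at S6 rest on 2 to 9 input reads a library for these 2 peaks.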

How the data were processed

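The authors began with reads counted in 50-bp bins along genes (Ensembl 94). They then used MeRIPtools to call and merge peaks and to obtain their read counts. The deposited values are raw counts per peak for 32 libraries, without normalization. The aligner and genome build are not given in the sources used here. Of the gene identifiers 7596 matched a symbol and 382 did not. The members and lists were chosen with earlier results of these data known.

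Input counts were summed over a gene's peaks. In R 4.3.3, edgeR 4.0.16 with TMM factors tested genes and peaks with a total of at least 10, by quasi-likelihood F-tests with Benjamini-Hochberg adjustment. The input model held stage and cell line over 16 libraries, and the methylation model held stage, line and library type with its stage interaction, over 32 libraries. Differences between lines used separate stage means per line. CPM of genes used effective sizes of the input libraries, and ratios those of the 32 libraries. A standard error is the log2 change divided by the square root of F. Zero groups were bounded at 3 counts over the group. The study used DESeq2, which was an alternative here (1.42.0). The scripts were tested on simulated data, and plots were drawn with Python 3.11.15 and matplotlib 3.10.9. Precision of single counts is given by exact 95% intervals, which cover counting error only.

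The text names the 4 genes with all their peaks, the 3 called factors of the list of 41 with the largest change at each step, and the 3 genes of at least 1 CPM most like each gene, of which 1 is not reported here. IP and input of the same number come from the same preparation. The alternatives were DESeq2, other normalizations and filters, no cell line, a replicate block, thinned IP libraries, single lines, only the libraries compared, and each preparation left out. Leaving out both MEL1 S4 preparations was added after the data were seen.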

Additional observations from a re-analysis of the deposited data

Results flagged for a closer look

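A difference between the lines is listed where the test of the difference itself passed the threshold. In input change (MEL1 minus H1, log2) it was 5.23 for HHEX at S3 against S0, and at S6 against S4 it was 4.81 for PDX1, 3.25 for MNX1 and 2.77 for HHEX. In IP over input at S4 it was -1.55 for PDX1 651, -1.69 for PDX1 951 and -2.55 for MNX1 403. Of 42 groups of 4 libraries or preparations tested, 2 had a sample far from the others, and chance alone picks about 1 group in 20. They were MNX1 peak 953 at S4, with a gap of 0.978 of the range, where the second MEL1 preparation lay below both H1 preparations and the ratio of the first rests on no input read, and HHEX peak 1651 at S6, with a gap of 0.883 of the range, where the first H1 preparation lay above the others on 2 input reads.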

How the results depend on the processing

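Of 1478 values of single genes or peaks under an alternative, 1371 kept their direction or stayed without a call, 67 lost a call and 33 gained one. The other 7 changed sign or went to 0, with a call in the main fit or in the alternative. Of 272 counts of calls, 246 stayed within 1.5 times. Fits of H1 alone gave -2.93 for PDX1 and -1.67 for MNX1 at S6 against S4, and -0.57 for HHEX at S6 against S0. Fits of MEL1 alone gave 1.13 for PDX1 at S6 against S3, 0 for ISL1 input at S3 against S0 and for ISL1 2201 at S3, where it had no read, and -0.0444 for MNX1 953 at S4. These are the 7. The ISL1 values were 0 for want of reads and did not turn. HHEX (adjusted p = 0.544 by edgeR) and MNX1 953 (adjusted p = 0.999) had the other sign without a call. The others were called with the sign opposite to that over both lines. Of the 4 genes, H1 alone called 1 (HHEX) at S4 against S3, 3 at S6 against S4 and 3 at S6 against S3, where it called 7.42%, 9.36% and 16.8% of all genes. MEL1 alone called 1 at S6 against S4 and 2 at S6 against S3 (15.8% and 21.4%). For change in IP over input, H1 alone called 4 peaks at S4 against S3, 2 at S6 against S4, 1 at S6 against S0 and 1 at S3 against S0, beside 46.2%, 41.6%, 10.8% and 6.09% of all peaks, and MEL1 alone 1 at S3 against S0 and 1 at S6 against S0 (8.8% and 10.9%). For IP over input MEL1 alone called 3 at S3 and 3 at S4 (23.3% and 15.9%). DESeq2 called 2 at S3, 2 at S6, 1 for the change at S6 against S0, and 5 for the line difference at S4 (20.4%, 20.9%, 6.4% and 43.2%). Without both MEL1 S4 preparations, an alternative added after seeing the data, 1 peak (MNX1 953) was called for a rise into S4 and 1 for a fall out of it (20.9% and 19.2%). The cause of these shifts was not tested.

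With each preparation left out, the calls of IP over input ran from 3 to 4 at S3, 3 to 5 at S4 and 2 to 3 at S6 (27.2% to 28.2%, 19.5% to 23.8% and 25% to 26.7% of all peaks), those of the line difference from 0 to 4 at S4 (31.9% to 36.8%), and those of the input line difference from 1 to 2 at S3 against S0 and from 2 to 3 at S6 against S4 (29.8% to 37.4% and 12.7% to 17.7% of all genes). The 2 came without the first MEL1 S0 or the second MEL1 S3 input library, when MNX1 was called as well. The other counts did not move. Among the listed factors, GATA4 and FOXA2 at S4 and GATA4, ONECUT2 and FOXA3 at S6 lost their calls without a term for cell line, and PROX1, GATA4 at S4, ONECUT2 and FOXA3 did without both MEL1 S4 libraries.

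With a replicate block, 4, 0, 0, 0 and 4 genes were called in the order S3 and S4 each against the stage before, then S6 against S4, S3 and S0 (28.1%, 1.17%, 4.23%, 12.9% and 30.8% of all genes). No peak changed in IP over input (0.0804%, 7.29%, 6.82%, 0% and 0.18% of all peaks), and 1, 6, 6 and 5 peaks were enriched at S0, S3, S4 and S6 (29.6%, 30.6%, 19.5% and 28.8%), PDX1 951 being the one added at S6, and HHEX 1651 was called lower in IP at S4 (-1.5). The block ended the call of FOXA3. IP and input come from 1 preparation, and the correlation of their deviations ran from -0.157 to 0.045 over 8 pairs. Inputs of different stages share only a number, and 3 of 12 pairs were over 0.1. Low reads limit ISL1, HHEX in H1 at S6 and MNX1 in MEL1.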
